A study of Drosophila melanogaster with 4 samples.

Results

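The fourth chromosome is the smallest autosome of Drosophila melanogaster, and its genes were followed here in testes of 2 genotypes. Members were all genes whose locus in the deposited tables lay on chromosome 4 of the dm3 build, without names starting with RpS or eIF. This gave 85 of the 14664 listed genes. The genes left out by name were RpS3A and eIF4G1. Of the 85 members, 78 were protein-coding, 5 were pseudogenes, 1 was a non-coding RNA and 1, CG11231, had no match in the annotation.

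The libraries came from testes of Phf7-bam- flies, labelled as lacking both Phf7 and bam (2 libraries), and of bam- flies (2 libraries). All 4 libraries thus carry a loss of bam, and no wild-type testis was part of the comparison. Flies were within 3 days of eclosion, and polyadenylated RNA, captured on oligo-dT beads, was made into libraries with a directional kit. The alleles are not given in the labels. Loss of bam blocks the step from dividing spermatogonia to spermatocytes, and Phf7, which encodes a PHD finger protein, is known for its part in male germline identity.

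The fourth chromosome carries mostly heterochromatin, the compact and repeat-rich form of chromatin, yet its distal part holds genes at ordinary density. The heterochromatin protein HP1a and the chromosome-specific protein Pof, named for painting of the fourth, bind across these genes, and the methyltransferase egg places histone H3 lysine 9 methylation there. In other fly tissues Pof is known to raise the output of the chromosome. Many of its genes encode developmental transcription factors or proteins of the nervous system, and others serve every cell.

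Values are FPKM, sequenced fragments scaled to transcript length and library size, so that levels of different genes can be set side by side. Between 8650 and 8873 genes per library had an FPKM of at least 1, summed FPKM lay between 650127 and 662056, and the absolute depth is not given. Phf7 had 18.8 and 22.9 FPKM with the double mutation, against 173 and 152 FPKM in bam testes, and transcripts of bam itself had 27.6 and 32.6 FPKM, against 28.6 and 26.5 FPKM. All 6 early germ cell markers were expressed in every library, while 2 of 8 spermatocyte and spermatid markers and 5 of 6 cyst cell and hub markers reached 1 FPKM in all 4. Of the spermatocyte and spermatid markers, aly had 7.15 and 8.32 FPKM, against 8.49 and 7.64 FPKM, and Mst87F 1.44 and 2.94 FPKM, against 3.17 and 2.59 FPKM. fzo had a mean of 0.919 FPKM. The other 5 markers of that list, can, sa, dj, Mst98Ca and Mst98Cb, did not exceed 0.264 FPKM in any library, and the hub ligand gene upd1 lay at 0.19 to 0.28 FPKM. The 4 accessory gland markers summed to 847 and 15.7 FPKM in Phf7 bam replicates 1 and 2, and to 4.36 and 413 FPKM in bam replicates 1 and 2. Fat body markers summed to 23.7 and 36.7 FPKM in the Phf7 bam libraries and to 6.21 and 17.6 FPKM in the bam libraries. The 4 muscle sheath markers summed to 384 and 443 FPKM, against 316 and 435 FPKM. The 3 gut markers summed to 7.64 and 1.08 FPKM, against 4.32 and 0.64 FPKM, and 4 nervous system markers to 9.63 and 12.4 FPKM, against 11.1 and 13.2 FPKM. The part of these other tissues in the levels below was not tested. In whole testes, fewer cells of a type and less RNA per cell cannot be told apart.

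More than 2 in 3 genes of the fourth chromosome were expressed in these testes. A gene was counted as expressed when its FPKM was 1 or more in all 4 libraries. This held for 59 of 85 genes of the fourth chromosome, or 69.4%, and for 8160 of 14577 genes on all other chromosomes and scaffolds, or 56.0%. In single libraries, 74.1% and 71.8% of the genes of the fourth chromosome reached 1 FPKM in Phf7 bam replicates 1 and 2, and 71.8% in each bam library. On all other chromosomes these shares were 60.4% and 59.7% in the Phf7 bam libraries, and 58.9% and 59.7% in the bam libraries. The X chromosome stood at 62.3%, and the arms 2L, 2R, 3L and 3R lay between 53.7% and 55.9%. Genes on the heterochromatic scaffolds of the other chromosomes, 96 in number, stood at 55.2%, and 150 genes on unplaced scaffolds at 64.0%. These shares are descriptions without a test, since genes are not replicates.

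The order of the fourth chromosome and the others changed with the length of the locus. The median locus of the fourth chromosome was 8221 bp long, against 1908 bp on all other chromosomes. Among loci under 2 kb, 63.6% of 11 genes of the fourth chromosome were expressed, against 44.3% elsewhere, and among loci of 2 to 5 kb 84.6% of 13 genes, against 67.7%. Among loci of 5 to 10 kb the order was the other way, with 62.1% of 29 genes of the fourth chromosome and 72.1% elsewhere. Longer loci stood at 76.2% of 21 genes against 70.7% (10 to 20 kb), and at 63.6% of 11 genes against 64.4% (20 kb and over). Weighting the other chromosomes to the lengths of the fourth, a step added after seeing the data, put them at 66.5%, beside 69.4% on the fourth chromosome. Among protein-coding genes alone, the shares were 70.5% on the fourth chromosome and 58.4% elsewhere, or 68.0% with that weighting.

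**Figure D1:**
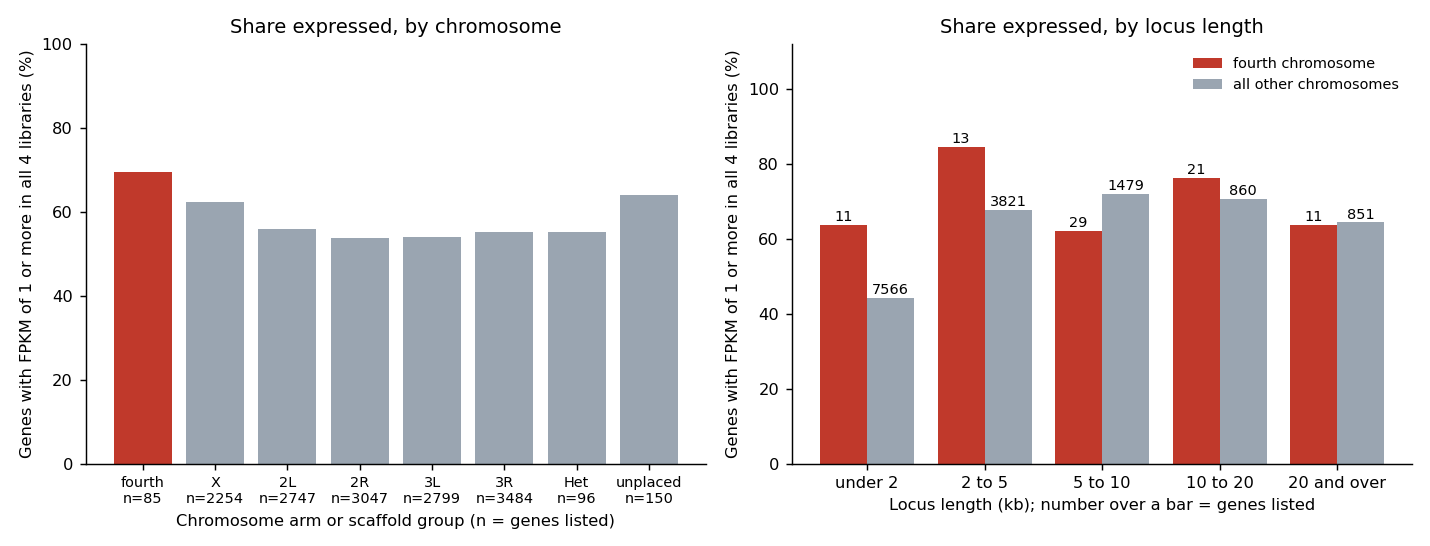
Left, bars give the percent of listed genes with an FPKM of 1 or more in all 4 libraries, for the fourth chromosome, the other arms, the heterochromatic (Het) scaffolds and unplaced scaffolds. Right, the same percent is given by locus length in kb for the fourth chromosome and for all others, and the fourth stands above the others in 3 of 5 length classes.

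Expressed genes of the fourth chromosome had a median level of 23.0 FPKM (quartiles 7.45 and 47.0), against 18.3 FPKM (quartiles 7.77 and 39.3) for expressed genes elsewhere. The median was 15.1 FPKM on X, between 17.1 and 20.6 FPKM on 2L, 2R, 3L and 3R, and 20.2 FPKM on the heterochromatic scaffolds. Among expressed protein-coding genes the order with those scaffolds was the other way. There the fourth chromosome stood at 24.6 FPKM, and 35 genes of the heterochromatic scaffolds at 27.7 FPKM. The medians of the fourth chromosome were 21.5 and 25.8 FPKM in Phf7 bam replicates 1 and 2, and 24.3 and 22.7 FPKM in bam replicates 1 and 2. Those of the other chromosomes were 17.3 and 19.6 FPKM in the Phf7 bam libraries, and 18.0 and 18.1 FPKM in the bam libraries. The median of the fourth chromosome was thus 1.25 and 1.31 times that of the others in the Phf7 bam libraries, and 1.35 and 1.25 times in the bam libraries. By locus length, the median of the fourth chromosome was the higher one in every class under 20 kb. It was 41.0 against 18.8 FPKM elsewhere under 2000 bp, and 46.0 against 18.1 FPKM from 2000 to 5000 bp. From 5000 to 10000 bp it was 23.2 against 20.2 FPKM, and from 10000 to 20000 bp 26.6 against 18.4 FPKM. In loci of 20 kb and over the order was reversed, at 10.97 FPKM on the fourth chromosome and 12.8 FPKM elsewhere. That class, like the shortest, held 7 expressed genes of the fourth chromosome.

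Of the 59 expressed members, 11 (18.6%) lay between 50 and 100 FPKM, against 10.4% of expressed genes elsewhere. At 100 FPKM and over stood 3 genes (5.08%), against 9.03% elsewhere, and the highest mean was 391 FPKM, against 52340 FPKM elsewhere. The naming rule bears on this class, since the other chromosomes keep their RpS and eIF names. The genes left out by name, RpS3A and eIF4G1, averaged 852 and 133 FPKM, and with them 5 of 61 expressed genes (8.20%) of the fourth chromosome stood at 100 FPKM and over. With such names left out on every chromosome, a comparison added after seeing the data, the shares were 5.08% on the fourth chromosome and 8.52% elsewhere. Of the 85 members, 0 were listed at 0 in all 4 libraries, against 1679 of 14577 genes on the other chromosomes and scaffolds. Among protein-coding genes these were 0 of 78 on the fourth chromosome and 1220 of 13251 elsewhere. On the heterochromatic scaffolds they were 5 of 96 genes, or 2 of 70 protein-coding genes. Loci of the fourth chromosome are longer, as given above, and the part of length in this was not tested.

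**Figure D2:**
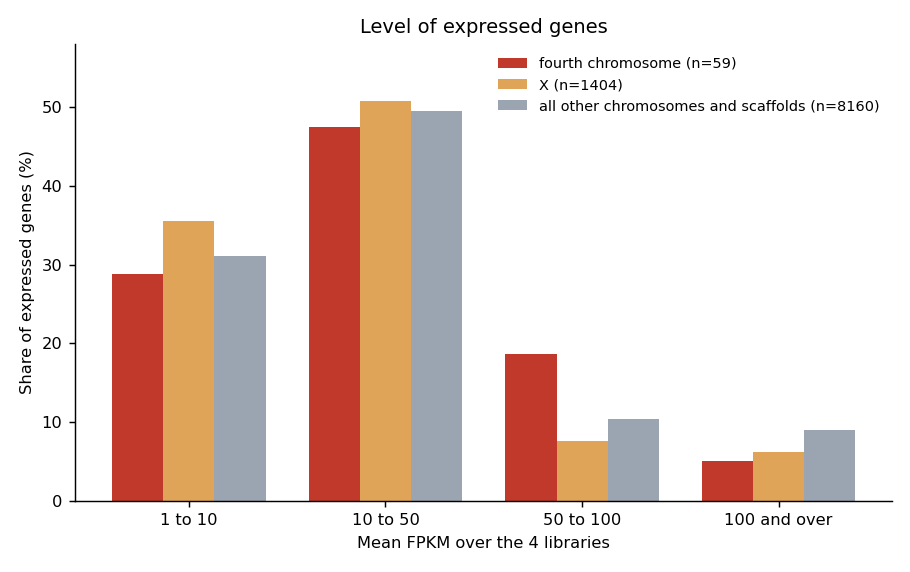
Bars give the percent of expressed genes whose mean FPKM over the 4 libraries falls in each class, for the fourth chromosome (59 genes), X (1404 genes) and all other chromosomes and scaffolds, X included (8160 genes). The fourth chromosome has 18.6% of its expressed genes between 50 and 100 FPKM and 5.08% above, with RpS3A and eIF4G1 left out of its bars and such names kept in the others.

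Of 20 genes in a list of general cell functions, drawn up with earlier results of these data known, 17 were expressed. Their median was 53.9 FPKM, beside 23.0 FPKM over all 59 expressed members. ATPsynbeta, the beta subunit of mitochondrial ATP synthase (ATPsyn-beta in the tables; 1052440 to 1055175), was highest of all members, with 376 and 434 FPKM in Phf7 bam testes, against 381 and 372 FPKM in bam testes. Rad23, which delivers ubiquitylated proteins to the proteasome (328723 to 330934), followed at 133 and 156 FPKM, against 136 and 128 FPKM. The uncharacterised CG11076 (1050337 to 1052286), which is in no role list and lies beside ATPsynbeta, was at 118 and 136 FPKM, against 135 and 125 FPKM. In all 3 genes the genotypes overlapped, and Phf7 bam replicate 2 had the highest value.

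Among the other genes of that list, gw, the GW182 protein of microRNA silencing (670575 to 682391), had 82.2 and 96.6 FPKM in Phf7 bam testes, against 90.3 and 89.5 FPKM in bam testes. Gyf, a GYF-domain protein of translational repression (CG11148 in the tables; 876026 to 887652), was at 63.2 and 71.0 FPKM, against 61.3 and 63.1 FPKM. 4E-T, which binds the cap-binding protein eIF4E (CG32016 in the tables), was at 51.0 and 56.1 FPKM, against 55.5 and 53.1 FPKM. The values of gw and 4E-T in bam testes lay inside the range of the Phf7 bam libraries, and for Gyf the genotypes were parted by a narrow margin. gw, Gyf and 4E-T ranked 4, 8 and 12 by mean level among the 85 genes.

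The SH2 and SH3 adaptor Crk (230882 to 233794) stood at 72.5 and 83.9 FPKM, against 86.6 and 73.8 FPKM, and Ank, which encodes an ankyrin (137015 to 150378), at 65.7 and 73.3 FPKM, against 68.3 and 63.3 FPKM. Arf4, a small GTPase of membrane traffic (Arf102F in the tables; 1144800 to 1145807), was at 69.2 and 69.6 FPKM, against 60.1 and 62.2 FPKM, and ND-49, a subunit of mitochondrial complex I (CG1970 in the tables; 588914 to 591420), at 52.1 and 60.7 FPKM, against 53.9 and 54.5 FPKM. Only for Arf4 among these 4 did both Phf7 bam libraries lie above both bam libraries, as they did in 20.5% of all genes tested. The members of this list below 1 FPKM were Kif3C, a kinesin motor (0.35 and 0.32 FPKM, against 0.30 and 0.28 FPKM), RhoGAP102A (0.83 and 0.92 FPKM, against 0.62 and 0.85 FPKM) and JYalpha. JYalpha, a sodium-potassium pump subunit needed for sperm motility, was listed at 0 and at 0.11 FPKM in Phf7 bam testes, and at 0.03 and 0.05 FPKM in bam testes.

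Of 18 measured transcription factors and coactivators, 10 were expressed. Taf3, a subunit of the general factor TFIID (bip2 in the tables; 480508 to 487450), had 64.4 and 68.0 FPKM in Phf7 bam testes, against 57.3 and 57.9 FPKM in bam testes. The highest others were lgs, the Legless adaptor of Wnt signalling (51.9 and 59.4 FPKM, against 54.9 and 53.6 FPKM), Hcf, a cofactor of chromatin enzymes (41.4 and 44.1 FPKM, against 43.0 and 41.7 FPKM) and MED26 of the Mediator complex (38.2 and 43.4 FPKM, against 38.8 and 39.5 FPKM). pho, which recruits Polycomb complexes to DNA, was at 31.3 and 33.1 FPKM, against 28.5 and 28.7 FPKM. pan, the TCF factor of the Wnt pathway, was at 19.6 and 23.5 FPKM, against 19.2 and 21.5 FPKM. The Pax genes ey, toy and sv, which act in eye and sensory organ development, did not exceed 0.673 FPKM in any library, and so did onecut, dati and fd102C. Other developmental factors were expressed at lower levels: Mitf had a mean of 14.5 FPKM, Sox102F of 7.42 FPKM and ci of 7.20 FPKM. zfh2, which passed the threshold narrowly, was at 1.07 and 1.11 FPKM, against 1.37 and 1.39 FPKM.

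All 3 genes of the TGF-beta ligand family on the chromosome were measured. myo (myoglianin in the tables) had 13.9 and 15.2 FPKM in Phf7 bam testes, against 15.03 and 14.8 FPKM in bam testes, and mav at 7.49 and 7.39 FPKM, against 6.53 and 8.48 FPKM. The activin gene Actbeta was at 0.12 and 0.08 FPKM, against 0.04 and 0.05 FPKM. myo and mav were therefore expressed and Actbeta was not.

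Guidance receptors were expressed although most are known from axons. PlexA, a semaphorin receptor, had 36.4 and 39.5 FPKM in Phf7 bam testes, against 42.4 and 38.6 FPKM in bam testes, and PlexB at 10.7 and 11.9 FPKM, against 12.8 and 12.1 FPKM. The receptor tyrosine kinase Eph was at 21.5 and 25.7 FPKM, against 22.4 and 21.6 FPKM, and its ligand Ephrin at 22.8 and 25.8 FPKM, against 23.0 and 22.5 FPKM. Eph and Ephrin thus lay side by side in level in each library. dpr7, an immunoglobulin-domain gene of synaptic partner choice, varied most, at 2.17 and 0.79 FPKM, against 0.32 and 0.85 FPKM. Its locus overlaps RhoGAP102A by 4063 bp on the opposite strand, and whether the values were counted by strand is not given.

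Among 11 synaptic and neuronal signalling genes 7 were expressed. CaMKII, the calcium/calmodulin kinase known from memory, had 34.4 and 37.8 FPKM in Phf7 bam testes, against 42.5 FPKM in each bam library. Slip1, named for its binding to the Slowpoke channel, was at 29.9 and 34.8 FPKM, against 31.6 and 31.5 FPKM, and CaMKI at 28.3 and 30.1 FPKM, against 29.9 and 30.7 FPKM. Pur-alpha, a nucleic acid-binding protein, was at 10.7 and 12.9 FPKM, against 11.6 and 11.1 FPKM, and unc-13, which primes synaptic vesicles for release, at 11.3 and 12.4 FPKM, against 9.99 and 10.2 FPKM. CG11155, of the ionotropic glutamate receptor family, had 7.68 and 8.71 FPKM, against 10.1 and 11.3 FPKM, and Cadps, which acts in the release of dense-core vesicles, 1.80 and 2.08 FPKM, against 2.01 and 2.09 FPKM. Of these 7 genes, CaMKII and CG11155 had both Phf7 bam libraries below both bam libraries, and unc-13 had them above. Of all genes tested, 14.0% had them below and 20.5% above, so in 7 genes such cases are common. The genes below threshold were the glutamate receptor genes mGluR and Ekar, the GABA transporter Gat and the vesicle protein Syt7, which lay between 0.15 and 0.84 FPKM over all libraries. Of the 3 products of other tissues, the muscle protein gene bt was at 14.5 and 14.5 FPKM, against 12.9 and 18.6 FPKM. The lipid carrier gene apolpp (Rfabg in the tables) was at 6.91 and 8.69 FPKM, against 5.98 and 7.21 FPKM, and yellow-h at 1.09 and 1.505 FPKM, against 1.08 and 1.14 FPKM. The muscle and fat body markers given above accompany bt and apolpp, and their part was not tested.

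Of the 25 members in no role list, 16 were expressed. They include the pseudogenes CR32011, CR32010 and CR32009, which follow one another at the proximal end and lay between 5.62 and 7.27 FPKM in all libraries. In each of them Phf7 bam replicate 1 was the lowest library and bam replicate 1 the highest. lncRNA:sphinx, an RNA known from male courtship, lay at 0.56 and 0.50 FPKM, against 0.71 and 0.63 FPKM, inside the locus of fuss. Around the threshold, zfh2, yellow-h and Cadps were the nearest genes inside it by their lowest library (1.07, 1.08 and 1.80 FPKM), and CG1909, NfI and CG33978 the nearest outside (0.86, 0.69 and 0.63 FPKM). In all, 21 genes of the chromosome were below 1 FPKM in every library, and 5 were above 1 in some libraries only.

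With 59 of 85 genes expressed, runs of expressed genes occur in any order of the genes. The runs are given as a description, and whether expressed genes cluster was not tested. The longest run held 10 expressed genes in a row, lgs to Ephrin (457577 to 598159), and the next held 8, CR32011 to anne (26994 to 163754). The longest run below threshold had 4 genes, dpr7 to Syt7 (270225 to 327107). In consecutive windows of 250 kb, the share expressed was 83.3% of 18 genes, 68.8% of 16, 70.6% of 17, then 6 of 12 genes, and 68.2% of 22 in the last window, which ran on to 1275487. The window with the lowest share, 750001 to 1000000, holds fd102C, mGluR, fuss and lncRNA:sphinx, none above the threshold in all 4 libraries, beside MED26, Gyf and 4E-T. Runs and windows count members only, so the genes left out by name are missing from them. RpS3A (86745 to 87863, mean 852 FPKM) lies within the stretch from CR32011 to anne. eIF4G1 (935911 to 951347, mean 133 FPKM) lies within the window with the lowest share. Only 11.8% of the loci of the fourth chromosome overlapped another listed locus, against 34.8% elsewhere.

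**Figure D3:**
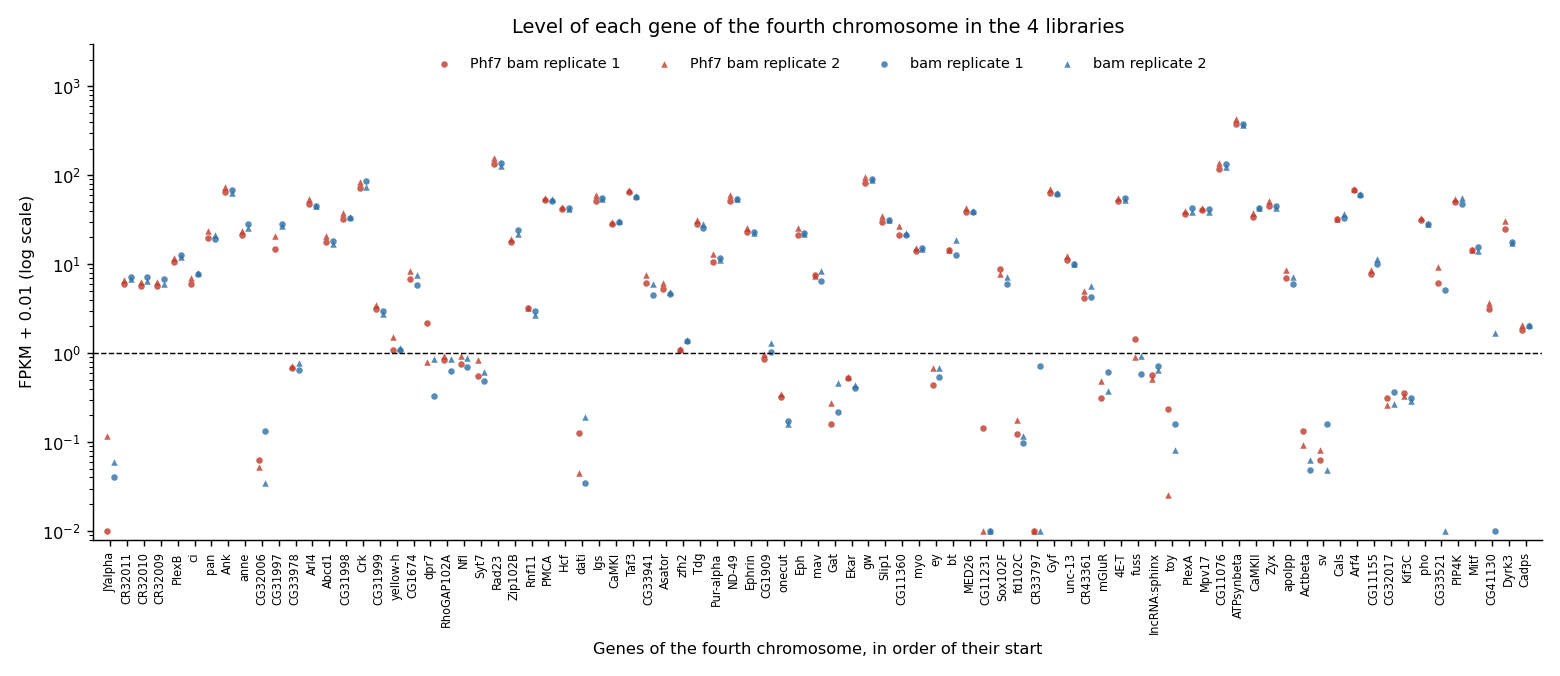
Each column is 1 of the 85 genes of the fourth chromosome in order of its start, and the points are its FPKM plus 0.01 on a log axis in Phf7 bam replicates 1 and 2 (red) and bam replicates 1 and 2 (blue). The dashed line marks 1 FPKM, and the 4 points of a gene above the line mostly lie close together, while genes below it, such as toy and dati, scatter more.

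The chromatin factors that act on the fourth chromosome, which are encoded on other chromosomes, were all present. Of 11 measured factors, 11 were expressed, with a median of 40.8 FPKM. Mean levels were 174 FPKM for HP4, 137 FPKM for Su(var)3-9, 111 FPKM for Dp1 and 65.2 FPKM for wde. They were 39.5 FPKM for JIL-1, 28.6 FPKM for HP5, 25.1 FPKM for Su(var)3-7 and 16.8 FPKM for G9a. A limma unadjusted p under 0.05 was found for 0 of them, against 6.13% of all genes tested. An adjusted p under 0.05 was found for 0 as well, against 0.234%. With 11 genes these counts lie near the shares over all genes. Pof itself had 10.7 and 10.1 FPKM in Phf7 bam testes, against 11.2 and 10.6 FPKM in bam testes, the lowest level of the list. HP1a was at 175 and 206 FPKM, against 224 and 199 FPKM, and egg at 41.4 and 45.4 FPKM, against 39.2 and 37.2 FPKM. For Pof the difference was -0.06 on the log2(FPKM + 1) scale (SE 0.107, limma adjusted p = 0.979). For HP1a it was -0.15 (SE 0.141, limma adjusted p = 0.933) and for egg 0.18 (SE 0.109, limma adjusted p = 0.906).

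The comparison of the genotypes asks whether loss of Phf7, in testes that already lack bam, goes with other levels of these genes. Genes with a mean of at least 1 FPKM were tested, which left 63 of the 85 members and 8965 genes in all. The test was limma on log2(FPKM + 1), two-sided, with Benjamini-Hochberg adjustment over all 8965 genes. Of the 63 members 0 were called at an adjusted p under 0.05, where 0.234% of all genes tested were called (11 higher and 10 lower, or 7 and 11 with equal medians). At an unadjusted p under 0.05 stood 5 members, or 7.94%, against 6.13% of all genes tested. This count depended on the scaling of the libraries. With equal medians limma gave 10 of 63 members and 1205 of 8965 genes at an unadjusted p under 0.05. With quantile normalization it gave 8 members and 1148 genes. Both Phf7 bam libraries lay above both bam libraries in 16 members, or 25.4%, against 20.5% of all genes, and below both in 12 members, or 19.0%, against 14.0%.

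The median of the chromosome lay near that of all genes tested. The median log2 difference, Phf7 bam minus bam, was 0.04 over the 63 members (quartiles -0.06 and 0.15) and 0.03 over all genes tested. It was 0.03 on X and -0.02 on the heterochromatic scaffolds. The difference was positive in 37 members and negative in 26, or 58.7% positive, against 57.3% of tested genes elsewhere. Phf7 bam replicate 2 exceeded replicate 1 in 58 of 63 members, with a median shift of 0.15, and in 83.5% of tested genes elsewhere, with a median shift of 0.18. The median signed shift between the bam replicates was 0.01 in the same members, and the median size of their difference was 0.082. The median difference of the chromosome was 0.14 without Phf7 bam replicate 1 and -0.03 without Phf7 bam replicate 2, and that of all genes moved alike, to 0.11 and -0.06. The 95% intervals of 59 of the 63 differences lay within 1 log2 unit of 0 on both sides, and the median interval reached 0.33 to each side. The exceptions were CG33521, CG41130, dpr7 and CG31997.

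**Figure D4:**
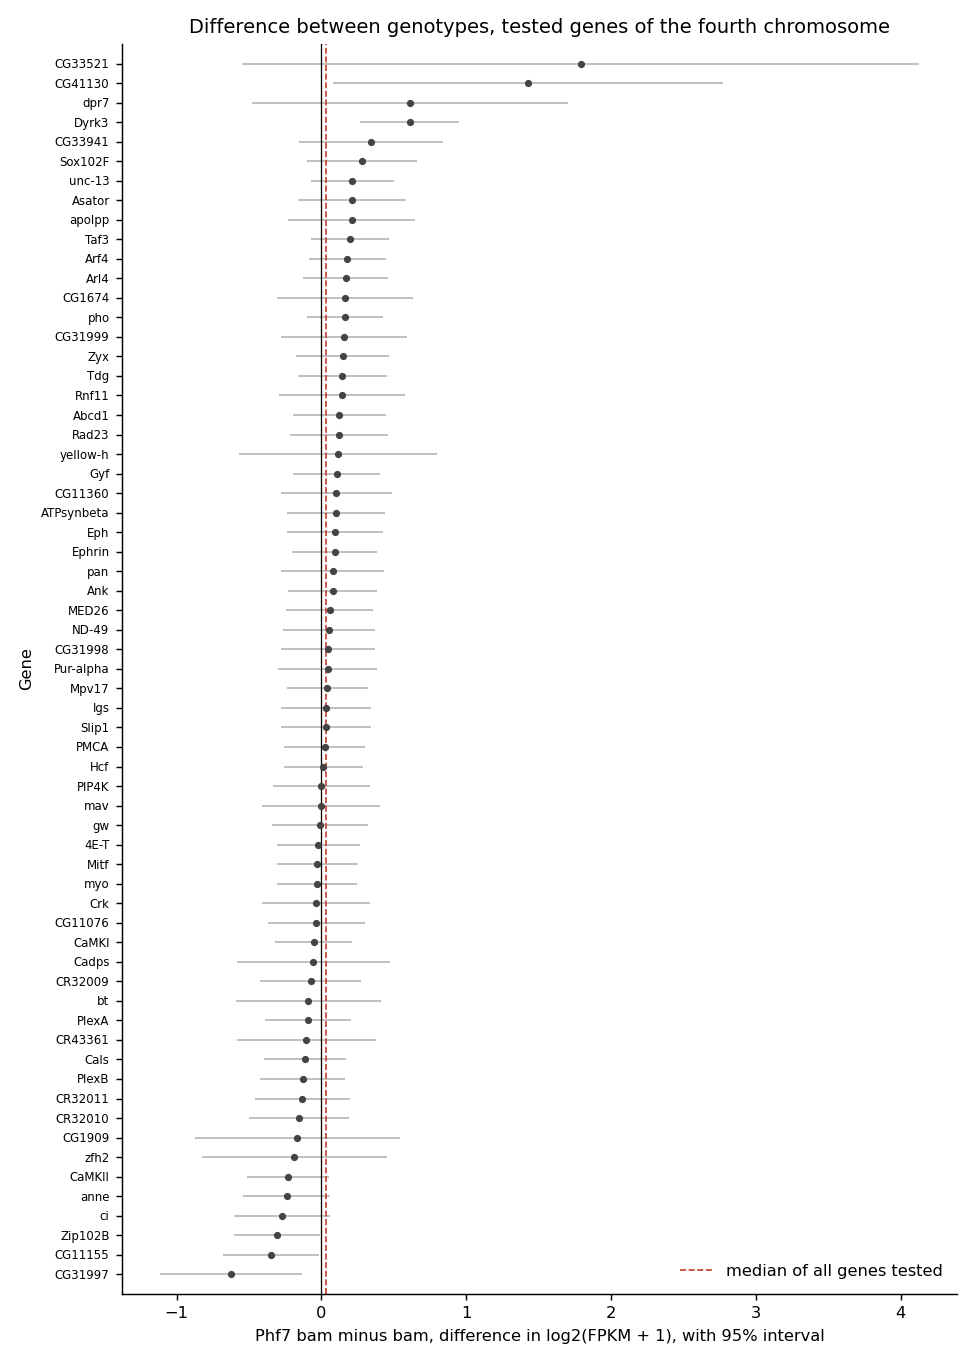
Points give the Phf7 bam minus bam difference in log2(FPKM + 1) for the 63 tested genes of the fourth chromosome, in order of size, and bars the limma 95% interval (n = 2 libraries per genotype). The dashed line is the median of all genes tested, 0.03, and the intervals of 5 genes do not span 0.

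Among members above 0 in every library whose genotypes did not overlap, Dyrk3 had the largest positive and CG31997 the largest negative difference. Dyrk3, a kinase of the DYRK family (1228840 to 1234433), stood at 25.1 and 30.3 FPKM in Phf7 bam testes, against 17.9 and 17.5 FPKM in bam testes. The difference was 0.61 (SE 0.130, limma unadjusted p = 0.00646, adjusted p = 0.396), and both Phf7 bam libraries lay above both bam libraries. CG31997, whose function is not known (175335 to 176678), stood at 14.8 and 21.0 FPKM, against 28.5 and 26.9 FPKM. Its difference was -0.62 (SE 0.186, limma unadjusted p = 0.0230, adjusted p = 0.671), with both Phf7 bam libraries below both bam libraries. Neither passed the test over all genes.

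With robust moderation of the spread, limma called 3 members (Dyrk3, CG31997 and CG41130; adjusted p = 0.00383, 0.00296 and 0.00154), or 4.76%, against 3.42% of all genes tested. In that setting the spread of most genes is set by their level and not by their own replicates. Among genes above 0 in all libraries with loci of at least 200 bp, limma called 2 members, Dyrk3 and CG31997 (adjusted p = 0.00336 and 0.00312), or 3.28% of the 61 members in that fit, against 3.72% of all its genes. Over the alternatives run, the limma adjusted p lay between 0.00336 and 1 for Dyrk3, and between 0.00296 and 1 for CG31997.

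CG33521 and CG41130 had the largest positive differences of all members, and both rest on a value listed at 0. CG33521 (1206399 to 1213327) stood at 6.18 and 9.24 FPKM in Phf7 bam testes, against 5.15 FPKM in bam replicate 1 and a listed 0 in bam replicate 2. Its difference was 1.79 (SE 0.889, limma adjusted p = 0.906), and its locus overlaps that of the lipid kinase gene PIP4K by 286 bp. CG41130 (1222921 to 1223325) had 3.12 and 3.66 FPKM, against a listed 0 in bam replicate 1 and 1.66 FPKM in bam replicate 2. Its difference was 1.43 (SE 0.512, limma adjusted p = 0.789), and its locus lies wholly inside Mitf, which itself was at 14.5 and 14.3 FPKM, against 15.4 and 14.0 FPKM. Reads in the shared stretches may be split between the genes. limma called CG33521 without bam replicate 1 (adjusted p = 0.0136) and CG41130 without bam replicate 2 (adjusted p = 0.0192), fits in which the bam library that remains is the one at 0. Those fits called 0.848% and 1.13% of all genes tested.

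Smaller differences without overlap of the genotypes followed. Among the positive ones, CG33941 (pncr013:4 in the tables) had 6.17 and 7.64 FPKM in Phf7 bam testes, against 4.48 and 6.02 FPKM in bam testes, a difference of 0.34 (SE 0.189). The SoxD factor Sox102F was at 8.77 and 7.68 FPKM, against 5.99 and 7.23 FPKM, a difference of 0.28 (SE 0.145). Both had a limma adjusted p = 0.906. Among the negative ones, CG11155, with the values given above, had a log2 difference of -0.35 (SE 0.127, limma adjusted p = 0.794). The zinc transporter gene Zip102B (CG2177 in the tables) was at 17.8 and 19.0 FPKM, against 24.3 and 21.7 FPKM, with a log2 difference of -0.31 (SE 0.112, limma adjusted p = 0.794). ci, the transcription factor of Hedgehog signalling, was at 5.98 and 6.91 FPKM, against 7.86 and 8.07 FPKM, with a log2 difference of -0.27 (SE 0.126, limma adjusted p = 0.901). anne (CG32000 in the tables) was at 21.4 and 23.5 FPKM, against 28.05 and 25.3 FPKM, with a log2 difference of -0.24 (SE 0.114, limma adjusted p = 0.906). In each of these 6 genes both Phf7 bam libraries lay on one side of both bam libraries, and none passed the test.

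**Figure D5:**
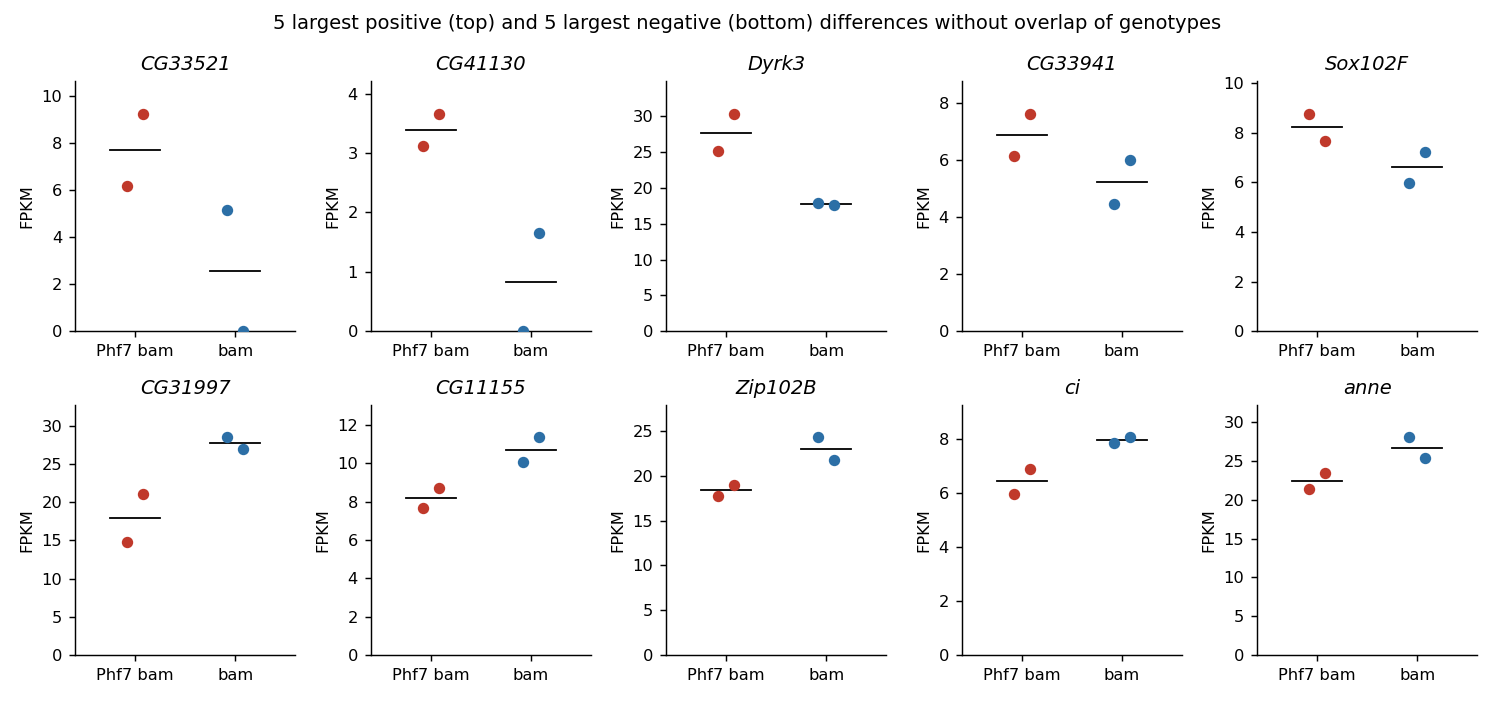
Points are the FPKM of single libraries in Phf7 bam (red) and bam testes (blue), and lines the mean of 2 libraries, for the 5 largest positive (top row) and 5 largest negative differences (bottom row) among members whose genotypes do not overlap. CG33521 and CG41130 each have a bam library listed at 0, and Dyrk3 has the widest gap relative to its replicates in the top row.

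The 10 genes with the highest mean differed less. Their differences lay between -0.04 for CG11076 (SE 0.127) and 0.20 for Taf3 (SE 0.102), with limma adjusted p of 0.906 or more. ATPsynbeta stood at 0.10 (SE 0.128), Rad23 at 0.12 (SE 0.128), Arf4 at 0.18 (SE 0.1004) and Gyf at 0.11 (SE 0.114). Ank was at 0.08 (SE 0.117) and ND-49 at 0.05 (SE 0.122), while gw at -0.01 (SE 0.126) and Crk at -0.04 (SE 0.142) were negative. A p that misses the threshold with 2 libraries per genotype does not show that levels are equal. Of the role lists, general cell functions had 12 positive and 5 negative differences among 17 tested (median 0.10), transcription factors 7 and 3 among 10 (median 0.05), and synaptic genes 3 and 4 among 7 (median -0.05). Axon guidance genes had 3 positive and 2 negative among 5 (median 0.09), products of other tissues 2 and 1 among 3 (median 0.11), and both tested TGF-beta ligands were negative (median -0.02). The 19 tested members outside the lists had 10 positive and 9 negative differences (median 0.04), beside 0.03 over all genes tested. On the other chromosomes and scaffolds 57.3% of tested genes had a positive difference, so more positive than negative signs are not particular to a list.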

How the data were processed

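Testis RNA was sequenced in 4 libraries, 2 per genotype. Each deposited table holds the FPKM of every gene in 1 library, per the file headers. TopHat2, Cufflinks, Cuffdiff and dm3 stand in the submitters' processing notes. Which annotation was used, and whether counting used strand, is not given in the sources. The deposited interval bounds and statuses served no error estimate. Depth relative to bam replicate 1 was read from the most common per-gene ratio among values up to 0.15 FPKM. It was 1.16 and 1.42 for Phf7 bam replicates 1 and 2 and 1.22 for bam replicate 2. Between 21.4% and 22.8% of the genes used lay at that ratio, so these depths are rough. Absolute depth is unknown, so intervals rest on replicates alone.

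Symbols were matched by identifier for 77 members and by name for 7, and 1 kept its table name. Gene class and strand came from a later annotation, by identifier or, where that was not found, by a unique gene name. Its coordinates were not used. Coordinates are dm3, counted from 1. Genes averaging 1 FPKM or more were fitted as log2(FPKM + 1) with limma 3.58.1 in R 4.3.3, genotype only, with trend. The prior added 2.64 degrees of freedom. The fit was tested on simulated data. Tables were joined in Python 3.11.15 (pandas 2.3.3, numpy 2.4.6) and drawn with matplotlib 3.10.9.

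The labels number the replicates and do not say that they came from separate flies, so the p-values cover only the spread between these libraries, which may be technical. Members and lists were chosen with earlier results of these data known. Members named with a difference were all called members, the 10 highest by mean, and the 5 largest differences in each direction without overlap. Pof, HP1a and egg, which are not members, were given a difference outside these rules. dpr7 and the genes named for their position, overlap or place outside an interval were chosen after their values were seen. Alternatives varied thresholds, pseudocounts (0.1 and 0.5), filters, scaling, moderation, a replicate block, gene class, overlaps and each library. Promoter motifs were planned and not analysed here. Of the planned list names, Crg-1 was not found on the chromosome.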

Additional observations from a re-analysis of the deposited data

How the results depend on the processing

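The share of expressed genes of the fourth chromosome was 76.5% at 0.5 FPKM, 60.0% at 5 FPKM, 75.3% with 1 FPKM in any library, 74.1% with a mean of 1 FPKM and 76.0% without overlapping loci, and 69.4% to 70.6% with 1 library left out. In each of these the share elsewhere was lower (59.5%, 44.8%, 64.0%, 61.1% and 55.0% in the same order). The median level over all listed genes of the chromosome was 9.45 FPKM, against 4.35 FPKM elsewhere, and 22.8 to 23.7 FPKM in expressed genes with 1 library left out. The median difference of the chromosome lay between -0.032 and 0.14 with 1 library left out. The count of called members was 0 to 1 with 1 library left out, 3 with robust moderation and 2 among genes above 0 with loci of at least 200 bp. Over all genes, limma called 21, and 0 with no filter (1051 at an unadjusted p under 0.05), 37 with a mean of at least 5 FPKM, 64 among protein-coding genes, 69 among loci of at least 200 bp, 9 without overlapping loci, 307 with robust moderation, 313 among genes above 0 with loci of at least 200 bp, and 0 to 101 with 1 library left out. Leaving out Phf7 bam replicate 1 or 2 gave 0, and leaving out bam replicate 1 or 2 gave 76 or 101. In those fits the genotype with a lone library is taken to vary as the other genotype does.

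Whether same-numbered libraries were prepared together is not given in the labels. Their deviations from the genotype mean correlated at -0.37, which cannot settle it, since tissue carried along in dissection also moves these values. The replicate block gave 18 calls over all genes and 0 members. The crossed pairing, added after seeing the data, gave 133 calls and 0 members. Of 317 alternative values of the 20 named genes, 301 kept direction and side of the threshold, 7 passed it (Dyrk3 and CG31997 at 0.61 and -0.62 with robust moderation and among genes above 0, CG41130 at 1.43 with robust moderation and 2.13 without bam replicate 2, CG33521 at 3.10 without bam replicate 1) and 9 changed sign. Where only the filter, the moderation or the block was varied, the difference of a gene stays the same by construction. Those settings could move only its p, so the kept directions there are no sign of stability. ATPsynbeta was at -0.037 with quantile normalization. With 1 library left out ATPsynbeta ranged from -0.0014 to 0.20, Ank from -0.00013 to 0.15, CG11076 from -0.14 to 0.064, Crk from -0.15 to 0.078, ND-49 from -0.057 to 0.16 and gw from -0.13 to 0.10. The cause of these changes was not tested. Planned motif shares were not run.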
